A study of Mus musculus with 19 samples.

Results

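The mucin genes examined here were *Muc1*, *Muc4*, *Muc5b*, *Muc16* and *Muc20*, 5 of the 53558 genes in the expression tables. They were chosen by name as members of one gene family, by a rule that uses no measured value, although earlier results of these data were known when the family was picked. Their levels were compared across neoplastic cells of mouse lung tumors that were initiated 17 weeks earlier with 3 Cre-expressing lentiviral vectors. The mice carried Cre-activated alleles of tdTomato and, at the H11 locus, Cas9, so that every group shared the same alleles and differed in the sgRNAs of the vector. The sgInert vector carries control sgRNAs named sgNeo1, sgNT and sgNeo2 (7 libraries), the sgCebpa/b/d vector targets the transcription factor genes *Cebpa*, *Cebpb* and *Cebpd* (7 libraries), and the sgLkb1 vector targets *Lkb1*, whose gene symbol is *Stk11* (5 libraries). Cells carrying CD45, CD31, F4/80 or Ter119 were removed during sorting. The comparison asks how far loss of the C/EBP factors resembles loss of the kinase LKB1 at the RNA level.

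Mucins are large glycoproteins whose repeats rich in serine and threonine carry dense O-linked sugar chains. Membrane mucins, such as those encoded by *Muc1*, *Muc4*, *Muc16* and *Muc20*, cover the outer face of epithelial cells and can bind or modulate receptor tyrosine kinases, whereas gel-forming mucins such as those of *Muc5b* and *Muc5ac* are secreted and polymerize into mucus. In the healthy lung *Muc1* is made by alveolar type II (ATII) cells and airway cells, and *Muc5b* mainly by secretory cells of the airways and glands.

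In the mouse genome build GRCm38 (mm10), *Muc1* lies on chromosome 3 (chr3:89229057-89233381, + strand, up to 7 exons) and *Muc5b* on chromosome 7 (chr7:141839070-141873084, + strand, 49 exons). *Muc5b* begins 19.8 kb after the end of *Muc5ac*, in a cluster of gel-forming mucin genes that also holds *Muc2* and *Muc6*. *Muc16* lies on chromosome 9 (chr9:18495455-18674530, - strand, up to 80 exons). *Muc4* (chr16:32735886-32782391, + strand, up to 27 exons) and *Muc20* (chr16:32777419-32797435, - strand, 4 exons) are neighbours on chromosome 16 that point toward each other and overlap over 4973 bases.

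The bases just before the annotated starts of *Muc1*, *Muc4* and *Muc20* are shown because these were the 3 most highly expressed members, and because C/EBP factors are targeted in one of the groups. The sequences are from RefSeq on GRCm38.p6, each is the 250 bases before the start written on the gene's own strand, and capitals mark matches to the motifs searched. The same window was read for *Muc16* and held no match, and *Muc5b* has no entry in the table used.
Muc1, chr3:89228806-89229055, + strand: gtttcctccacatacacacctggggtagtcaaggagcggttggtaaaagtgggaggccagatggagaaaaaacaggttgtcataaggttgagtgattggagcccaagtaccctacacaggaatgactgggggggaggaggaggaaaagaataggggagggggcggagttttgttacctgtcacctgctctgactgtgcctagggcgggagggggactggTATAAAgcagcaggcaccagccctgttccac
Muc4, chr16:32735636-32735885, + strand: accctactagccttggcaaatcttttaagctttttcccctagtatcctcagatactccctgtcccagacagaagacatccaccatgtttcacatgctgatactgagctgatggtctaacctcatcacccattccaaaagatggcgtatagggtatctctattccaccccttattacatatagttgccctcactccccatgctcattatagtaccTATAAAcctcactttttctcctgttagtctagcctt
Muc20, chr16:32797436-32797685, - strand: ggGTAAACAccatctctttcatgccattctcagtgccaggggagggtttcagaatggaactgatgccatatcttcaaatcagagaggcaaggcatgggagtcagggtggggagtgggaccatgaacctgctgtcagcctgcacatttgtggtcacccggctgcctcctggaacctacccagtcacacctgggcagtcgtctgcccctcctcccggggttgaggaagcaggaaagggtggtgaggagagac

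Both strands of the 300-base window (250 bases before and 50 after the start) were searched for a C/EBP motif (TTGCNNAA), an NKX2-1 core (CACTTG), a FOXA motif (TGTTTAC) and a full CRE (TGACGTCA). Of the 32851 windows of all genes, 10.8% held the C/EBP motif, 13.6% the NKX2-1 core, 3.65% the FOXA motif and 1.79% the full CRE. The windows of *Muc1*, *Muc4*, *Muc16* and *Muc20* held none of the C/EBP, NKX2-1 and CRE letters. *Muc20* held 1 FOXA match, in reverse, 248 bases before its start. The letters TATAAA, which were added to the search after the sequences were seen, began 31 bases before the start in *Muc1* and 36 bases before it in *Muc4*, and were held by 13.6% of all windows.

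The 19 libraries held 2760731 to 9944134 expected counts, with a median of 6028922. *Stk11* was at 7.53 to 12.5 CPM (counts per 1000000 of the TMM-scaled library size) in sgLkb1 and at 19.5 to 22.9 in sgInert, and all sgLkb1 libraries were below all sgInert libraries. In sgCebpa/b/d, *Cebpa* was higher than in sgInert by 0.73 ± 0.14 on the log2 scale (SE, adjusted p = 0.0015), *Cebpb* by 1.16 ± 0.37 (adjusted p = 0.052) and *Cebpd* by 0.20 ± 0.28 (adjusted p = 0.74). Cas9 leaves small insertions and deletions that gene counts do not show, so these levels do not check the sgCebpa/b/d label, which is used below as the labels give it. Library titles carry an animal number starting with MT (3 sgInert, 4 sgCebpa/b/d and 3 sgLkb1 libraries), one starting with ZR (4 sgInert libraries) or none (3 sgCebpa/b/d and 2 sgLkb1 libraries). In sgCebpa/b/d the MT-numbered libraries are all female and the unnumbered ones all male, so that sex and title series cannot be told apart there.

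The sum over 8 ATII markers was 82677 to 104556 CPM in sgInert, 46020 to 62532 in sgLkb1 and 34904 to 69304 in sgCebpa/b/d. Markers of the labelled tissue were thus high throughout, although lower in both targeted groups. The sum over 6 alveolar type I markers was 704 to 1100 CPM in sgInert, 977 to 1194 in sgLkb1 and 1364 to 2101 in sgCebpa/b/d. The part of these differences in the mucin levels was not tested. Of the 3 basal cell markers, *Krt5* and *Krt14* had no count in any library. The remaining gene brought the basal sum to at most 2.65 CPM, reached by sgInert replicate 3. The highest basal sum was 0.910 CPM among sgLkb1 libraries and 0.724 CPM among sgCebpa/b/d libraries, and the median of each group was 0. Endothelial and immune markers moved with the title series in the targeted groups, as the plot of summed marker levels shows. Fibroblast and mesothelial markers also differed between the groups. The sum over 6 endothelial markers was 170 to 246 CPM in the 3 unnumbered sgCebpa/b/d libraries, 97.8 and 187 in the 2 unnumbered sgLkb1 libraries and at most 86.0 in the other 14. The sum over 8 immune markers was 57.2 to 72.4 CPM in the unnumbered sgCebpa/b/d libraries, 25.05 and 62.8 in the unnumbered sgLkb1 libraries, and at most 19.3 in the others. The 8 fibroblast markers summed to 11.1 to 21.2 CPM in MT-numbered sgInert libraries and to 46.4 to 153 in ZR-numbered ones. Their range was 62.8 to 242 CPM for sgCebpa/b/d and 97.2 to 254 CPM for sgLkb1. Within the MT-numbered libraries it was 62.8 to 234 CPM for sgCebpa/b/d and 97.2 to 221 CPM for sgLkb1, above the MT-numbered sgInert libraries. In bulk RNA, fewer cells that make a transcript and less transcript per cell cannot be told apart.

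**Figure D1:**
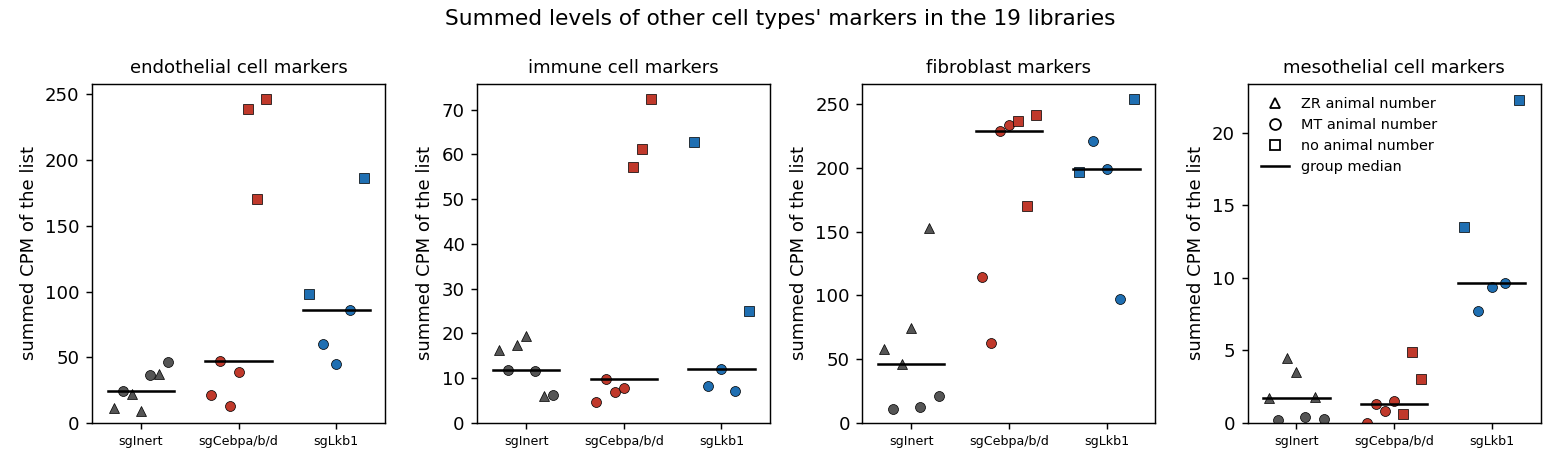
Summed CPM of 4 lists of marker genes of other cell types in each library, by group, with symbols for the title series and a bar at the group median. The unnumbered libraries (squares) are the highest for endothelial and immune markers in both targeted groups, and the MT-numbered sgInert libraries (circles) are the lowest for fibroblast markers.

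Per length of transcript, *Muc1* was by far the most abundant member, *Muc4* and *Muc20* followed, and *Muc5b* and *Muc16* were the lowest, with *Muc16* at 0 in 13 of 19 libraries. *Muc1* was at 334 to 771 TPM (abundance per transcript length, scaled to a common total) over the 19 libraries, with a median of 584, and ranked between 107 and 210 among all genes of its library. *Muc4* was at 16.3 to 77.5 TPM (median 31.6) and *Muc20* at 2.87 to 35.7 TPM (median 20.6). *Muc5b* was at 0 to 3.01 TPM (median 0.44) and *Muc16* at 0 to 1.58 TPM (median 0). Within libraries the order was almost fixed. *Muc1* was above *Muc4* in 19 of 19 libraries, *Muc4* above *Muc20* in 18 of 19, *Muc20* above *Muc5b* in 19 of 19, and *Muc5b* above *Muc16* in 17 of 19. The exceptions were sgLkb1 replicate 3, with 32.9 TPM of *Muc20* against 20.9 of *Muc4*, sgCebpa/b/d replicate 7, with 1.58 TPM of *Muc16* against 0.31 of *Muc5b*, and sgInert replicate 5, where both *Muc5b* and *Muc16* were at 0. Across libraries each of these members below *Muc1* overlapped its neighbour in range, while *Muc1* overlapped none.

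**Figure D2:**
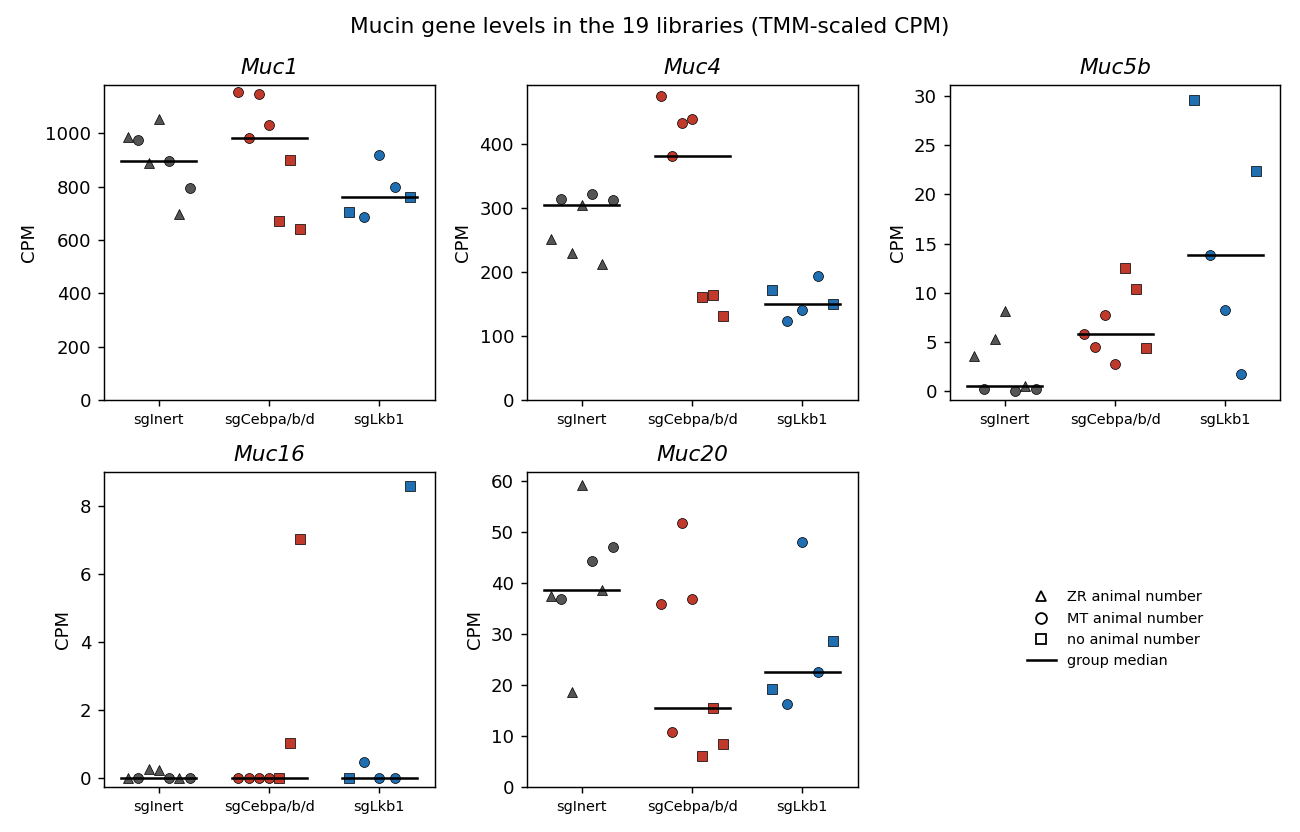
Level of each member in each of the 19 libraries (CPM, linear axes from 0, each panel with its own scale), by group, with symbols for the title series and a bar at the group median. *Muc4* was lower in all 5 sgLkb1 libraries than in all 7 sgInert libraries and splits sgCebpa/b/d by title series, *Muc5b* was highest in sgLkb1 replicates 1 and 5, and *Muc16* stands out in 2 libraries.

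Of the 5 members, 4 passed the filter on low counts and were tested, and *Muc16* did not pass. A gene was called where its adjusted p was under 0.05 and its log2 fold change above 1 in size, and all adjusted p-values are from edgeR's quasi-likelihood test over 13986 genes unless another test is named. Between sgCebpa/b/d and sgInert 0 of the 4 were called, where 4.65% of all genes tested were. None of the 4 had an unadjusted p under 0.05, and DESeq2 and limma on log2 TPM called 0 of them, whereas limma-voom called 1 (*Muc20*), where it called 3.85% of all genes. Between sgLkb1 and sgInert 1 of the 4 was called (*Muc5b*, higher), where 3.01% of all genes were called and 1.87% were called higher. *Muc4* and *Muc5b* had an unadjusted p under 0.05 there, DESeq2 called 1 of the 4 (*Muc5b*, with 4.17% of all genes called), and limma-voom and limma on log2 TPM called 0. Between sgCebpa/b/d and sgLkb1 0 of the 4 were called, where 2.80% of all genes were. There *Muc4* alone had an unadjusted p under 0.05, and it also passed the adjusted threshold, as 5.96% of all genes did without regard to fold, and DESeq2, limma-voom and limma on log2 TPM each called 0. Both comparisons with sgInert use the same sgInert libraries.

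*Muc1*, which encodes the small transmembrane mucin of alveolar and airway epithelium, was not called in any comparison. It was at 697 to 1054 CPM in sgInert (median 896) and at 641 to 1155 CPM in sgCebpa/b/d (median 981). In the 5 sgLkb1 libraries it was at 704, 688, 920, 800 and 762 CPM. The groups overlapped throughout. The log2 difference was 0.05 ± 0.13 for sgCebpa/b/d against sgInert (SE, adjusted p = 0.87, 95% interval -0.22 to 0.32) and -0.21 ± 0.14 for sgLkb1 against sgInert (adjusted p = 0.46, interval -0.51 to 0.08). Between sgCebpa/b/d and sgLkb1 it was 0.27 ± 0.14 (adjusted p = 0.34). Within sgCebpa/b/d the 4 MT-numbered libraries (981 to 1155 CPM) were above the 3 unnumbered ones (641 to 898 CPM). Among MT-numbered libraries alone *Muc1* was higher in sgCebpa/b/d than in sgLkb1 by 0.42 ± 0.11 (adjusted p = 0.036), which is under the fold threshold. The groups did not overlap there, as was the case for 19.4% of all genes, and 6.98% passed the adjusted threshold.

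*Muc4*, a large membrane mucin known as a binding partner of the receptor ERBB2, was lower in sgLkb1 than in sgInert without overlap. In sgInert it was at 214 to 323 CPM (median 305), and in sgLkb1 at 171, 123, 141, 194 and 151 CPM. The highest sgLkb1 library was thus below the lowest sgInert library, as it was for 2.00% of all genes tested, and groups did not overlap in either direction for 4.15%. The log2 difference was -0.84 ± 0.27 and missed the threshold (adjusted p = 0.080, interval -1.40 to -0.27). It was -0.63 (adjusted p = 0.24) with title series as a covariate and -0.75 (adjusted p = 0.19) with libraries of one animal number summed. All 5 sgLkb1 libraries are female, as are 3 of the 7 sgInert libraries. *Muc4* was called lower in sgLkb1 with sex as a covariate (-1.37, adjusted p = 0.00021, with 5.36% of all genes called in that fit). The sex term of that fit rests on sgInert and sgCebpa/b/d, and in sgCebpa/b/d sex and title series cannot be told apart. Among female libraries alone *Muc4* was called lower as well (-1.01, adjusted p = 0.00016, with 3.98% of all genes called). Most female libraries are the MT-numbered ones, and that p-value treats libraries that share an animal number as independent.

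In sgCebpa/b/d the level of *Muc4* separated the libraries by title series. The 4 MT-numbered libraries were at 475, 381, 434 and 439 CPM, all above the highest sgInert library (323 CPM), and the 3 unnumbered ones at 161, 165 and 132 CPM, all below the lowest (214 CPM). The averaged log2 difference from sgInert was 0.16 ± 0.24 (adjusted p = 0.75). The unnumbered libraries are the ones with the higher endothelial and immune marker sums given above, and the part of those cells in the *Muc4* level was not tested. Against sgLkb1, *Muc4* was higher in sgCebpa/b/d by 1.00 ± 0.28 (adjusted p = 0.033), just under the fold threshold (0.998), and the 3 unnumbered sgCebpa/b/d libraries lay within the sgLkb1 range. The titles give 3 of the sgCebpa/b/d libraries one animal number and 2 of the sgLkb1 libraries another, and with libraries of one animal number summed the difference was 0.66 and missed the threshold (adjusted p = 0.28).

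Within the MT-numbered libraries the 3 groups stood apart for *Muc4*. These libraries come from 2 animal numbers in each group, and the p-values below treat libraries that share one as independent. It was at 315, 323 and 312 CPM in sgInert, at 381 to 475 CPM in sgCebpa/b/d and at 123, 141 and 194 CPM in sgLkb1. *Muc4* was called lower in sgLkb1 than in sgInert (-1.06 ± 0.14, adjusted p = 0.00043) and higher in sgCebpa/b/d than in sgLkb1 (1.496 ± 0.14, adjusted p = 1.9e-05), where 3.77% and 3.65% of all genes were called. The difference between sgCebpa/b/d and sgInert was 0.44 ± 0.13 and missed the threshold (adjusted p = 0.060). In such small groups 23.5% of all genes did not overlap between sgLkb1 and sgInert, 19.4% between sgCebpa/b/d and sgLkb1 and 19.6% between sgCebpa/b/d and sgInert. The endothelial sums of the MT-numbered libraries were 24.0 to 46.0 CPM in sgInert, 44.6 to 86.0 in sgLkb1 and 13.0 to 47.3 in sgCebpa/b/d. In the same order, their fibroblast sums were 11.1 to 21.2, 97.2 to 221 and 62.8 to 234 CPM. Their mesothelial sums were 0.182 to 0.387, 7.68 to 9.63 and 0 to 1.53 CPM. The part of these cells in the *Muc4* level was not tested.

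*Muc20*, a membrane mucin reported to interact with the receptor MET, was at 18.6 to 59.2 CPM in sgInert (median 38.7) and at 6.07 to 51.8 CPM in sgCebpa/b/d (median 15.4). In sgLkb1 it was at 19.3, 16.3, 48.1, 22.6 and 28.5 CPM. The groups overlapped. The log2 difference from sgInert was -0.79 ± 0.39 in sgCebpa/b/d (adjusted p = 0.23, interval -1.60 to 0.02) and -0.58 ± 0.43 in sgLkb1 (adjusted p = 0.52, interval -1.47 to 0.30). The 3 unnumbered sgCebpa/b/d libraries, at 6.07, 15.4 and 8.36 CPM, were below all sgInert libraries, and of the MT-numbered ones only replicate 2, at 10.7 CPM, was. *Muc20* was called lower in sgCebpa/b/d by limma-voom (-1.24, adjusted p = 0.042) and with sex as a covariate (-1.12, adjusted p = 0.041, with 5.31% of all genes called). In that group sex and title series cannot be told apart, so that the sex term also carries the title series. *Muc20* was not called among MT-numbered libraries (-0.36, adjusted p = 0.70), among female libraries (-0.49, adjusted p = 0.63) or with title series as a covariate (-0.59, adjusted p = 0.56). Between sgCebpa/b/d and sgLkb1 it differed by -0.21 ± 0.43 (adjusted p = 0.85).

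*Muc4* and *Muc20* share sequence on opposite strands, as the map of their exons shows. The last exon of the transcript Muc20-202 (exon 4, chr16:32777419-32779146, mostly 3′ UTR) covers exons 23, 24 and 25 of Muc4-201 with 381 of its 11277 exon bases. The sources do not state that counting used strand, so reads from these bases could be given to either gene. In 11 of 19 libraries the expected counts of *Muc4* and *Muc20* were fractional, while their sum was whole in 19 of 19 (both within 0.005). The posterior SD of either count was at most 0.54, against at least 837 counts for the pair. The effective length of *Muc4* ranged from 6967 to 10064 bases over the libraries, since it follows the mix of transcripts, and TPM values carry that difference.

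**Figure D3:**
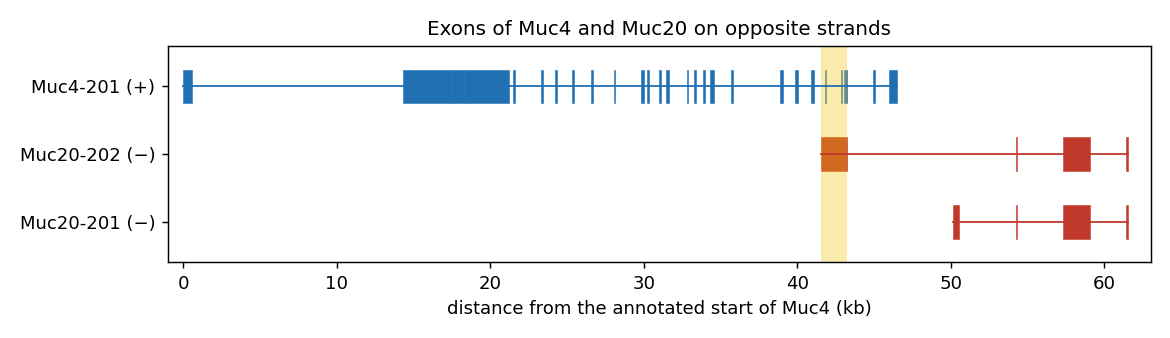
Exons (boxes) of Muc4-201 on the + strand and of the 2 *Muc20* transcripts on the - strand, against distance from the start of *Muc4* in kb. The shaded band marks the last exon of Muc20-202, which covers 3 exons of Muc4-201.

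*Muc5b*, which encodes a gel-forming mucin of airway mucus, was the called member, higher in sgLkb1 than in sgInert, at low counts. In sgInert it had 19, 1, 20, 35, 0, 3 and 1 counts (0 to 8.15 CPM, median 0.54). In sgCebpa/b/d it had 16, 44, 47, 16, 78, 61 and 26 counts (2.71 to 12.5 CPM, median 5.79). In sgLkb1 it had 257, 88, 54, 18 and 154 counts, which is 29.7, 13.8, 8.19, 1.77 and 22.4 CPM. The groups overlapped, with sgLkb1 replicate 4 below 3 of the sgInert libraries. The level that the filter on low counts asks for was reached in 5 of 5 sgLkb1 and 7 of 7 sgCebpa/b/d libraries but in 3 of 7 sgInert libraries, so that *Muc5b* passed the filter mainly through the targeted groups. The log2 difference was 2.61 ± 0.77 for sgLkb1 against sgInert (adjusted p = 0.046, interval 1.02 to 4.21) and 1.47 ± 0.73 for sgCebpa/b/d against sgInert (adjusted p = 0.23, interval -0.04 to 2.98). The targeted groups differed by -1.14 ± 0.72, which missed the threshold (adjusted p = 0.43).

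With 1 library left out the difference between sgLkb1 and sgInert ranged from 2.22 to 3.29. The call was lost on leaving out any of 12 of the 19 libraries (adjusted p up to 0.14), which were sgInert replicates 1, 2, 5, 6 and 7, sgCebpa/b/d replicates 1, 3 and 6, and sgLkb1 replicates 1, 2, 3 and 5. Both unnumbered sgLkb1 libraries (22.4 and 29.7 CPM) were above all other libraries for *Muc5b*. Without the unnumbered libraries the difference between sgLkb1 and sgInert was 1.66 (adjusted p = 0.39, with 2.21% of all genes called). Among female libraries it was 2.59 (adjusted p = 0.16), and with libraries of one animal number summed 2.51 (adjusted p = 0.11). With title series as a covariate *Muc5b* was called (adjusted p = 0.0013, with 403 of 13986 genes called). In that fit no sgInert library is unnumbered and no targeted library is ZR-numbered, so that sgInert enters the comparison through its MT-numbered libraries.

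Within the MT-numbered libraries, from 2 animal numbers in each group, *Muc5b* did not overlap between sgInert and either targeted group, as was the case for 19.6% of all genes in sgCebpa/b/d and 23.5% in sgLkb1. The 3 sgInert libraries had 1, 0 and 1 counts, the 4 sgCebpa/b/d libraries 16 to 47 and the 3 sgLkb1 libraries 18 to 88. The fit of these libraries called *Muc5b* in both comparisons, as it called 3.90% and 3.77% of all genes, but 0 of the 3 sgInert libraries reached the level the filter asks for, so that *Muc5b* was tested only because of its level in the targeted groups and the calls are given as a description. The ratio of summed counts to sgInert, corrected for library size, was 43.5 in sgCebpa/b/d (123 against 2 counts, exact 95% interval 11.8 to 363) and 60.0 in sgLkb1 (160 against 2 counts, interval 16.3 to 499). These intervals cover counting error only. The ZR-numbered sgInert libraries reached 0.54 to 8.15 CPM, so that over all libraries the ratios were 3.10 (interval 2.41 to 4.03) and 6.78 (interval 5.35 to 8.69). Fibroblast markers were also lowest in the MT-numbered sgInert libraries, and their part in the *Muc5b* level was not tested. Of the 5 club cell markers, which mark one airway source of *Muc5b*, the sum was 25.7 to 53.0 CPM in these sgInert libraries, 13.95 to 36.9 in sgLkb1 and 21.9 to 39.0 in sgCebpa/b/d, and these ranges overlapped. In the ZR-numbered sgInert replicates 1, 3, 4 and 6 the club sums were 202, 125, 129 and 47.2 CPM, beside 3.58, 5.30, 8.15 and 0.54 CPM of *Muc5b*. In the unnumbered libraries the club sums were 127 CPM in sgLkb1 replicate 1, 20.7 CPM in sgLkb1 replicate 5 and 45.5 to 94.5 CPM in sgCebpa/b/d. The part of club cells in the *Muc5b* level was not tested.

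**Figure D4:**
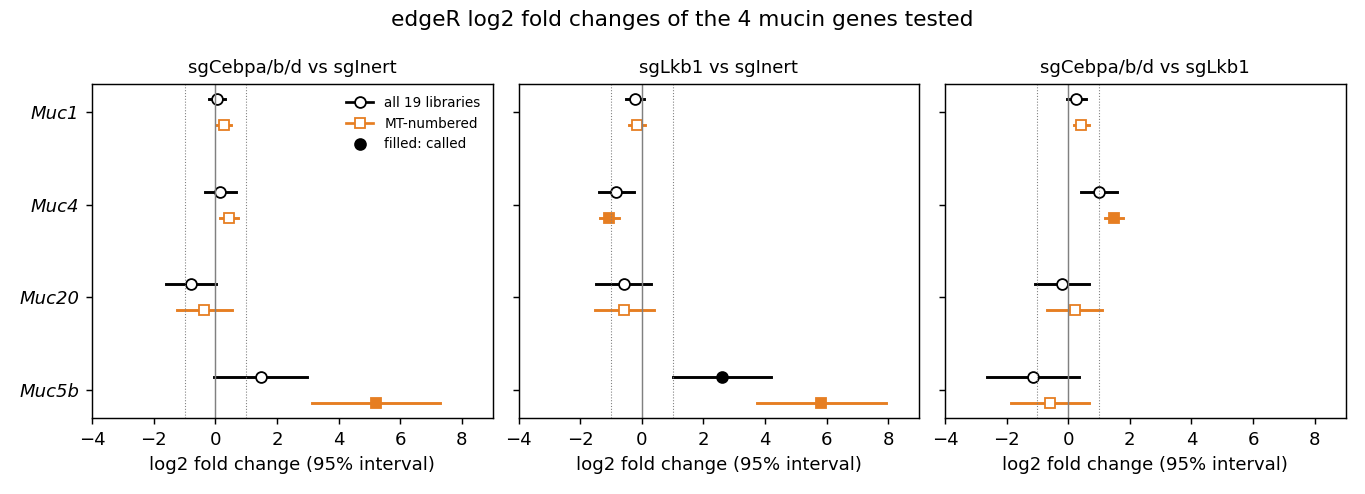
Fitted log2 fold changes of the 4 tested members with unadjusted 95% intervals in the 3 comparisons, over all 19 libraries (black circles) and within MT-numbered libraries (orange squares), with filled symbols for called genes and dotted lines at the fold threshold. *Muc5b* in sgLkb1 against sgInert is the 1 filled black symbol, and among MT-numbered libraries *Muc4* and *Muc5b* are filled in 2 comparisons each. The *Muc5b* values within MT-numbered libraries rest on 2 counts in sgInert, depend on the fit's prior count, and are a description.

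*Muc16*, a very large membrane mucin known as the source of the CA125 antigen, was found in 6 of 19 libraries, with 112 counts in all. sgLkb1 replicate 5 held 59 of them (8.59 CPM) and sgCebpa/b/d replicate 7 held 42 (7.03 CPM), both unnumbered libraries. sgCebpa/b/d replicate 6 had 6 counts, sgLkb1 replicate 2 had 3, and sgInert replicates 3 and 4 had 1 each. The other 13 libraries were at 0, which allows up to 3 counts, or 0.295 to 1.09 CPM depending on the library's depth. Fitted without the filter on low counts, *Muc16* had an adjusted p of 0.17 against sgInert in either targeted group. The effective length of *Muc16*, which follows the transcripts that RSEM assigned, was 4687 bases in sgCebpa/b/d replicate 7 and 17144 in sgLkb1 replicate 5, so that the near-equal CPM of these libraries correspond to 1.58 and 0.70 TPM. Mesothelial cells are a known source of *Muc16*. The sum over 6 mesothelial markers was 0.182 to 4.51 CPM in sgInert, 7.68 to 22.3 in sgLkb1, most of it *Msln*, and at most 4.91 in sgCebpa/b/d. *Calb2*, one of them, had no count in any library. *Lrrn4*, another, reached 3.50 CPM in sgLkb1 and 1.69 CPM in sgCebpa/b/d, each in an unnumbered library. The part of mesothelial cells in the *Muc16* counts was not tested.

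Other mucin and mucin-like genes were read from a list of 18, of which 15 were in the tables and 7 passed the filter. *Muc5ac*, which encodes the other gel-forming airway mucin and is also made by gastric surface cells, was called higher in sgCebpa/b/d than in sgInert (3.28 ± 0.81, adjusted p = 0.010). It was at 0 to 1.13 CPM in sgInert (median 0.265) and at 1.12 to 7.29 CPM in sgCebpa/b/d (median 2.54), so that the ranges met only at the highest sgInert and the lowest sgCebpa/b/d library. Of the sgInert libraries 0 of 7 reached the level the filter asks for, against 5 of 7 in sgCebpa/b/d, so that *Muc5ac* was tested only because of its level in the targeted groups. In sgLkb1 it was at 0 to 2.19 CPM (1.84 ± 0.86, adjusted p = 0.25), and the difference between the targeted groups was 1.43 ± 0.79 (adjusted p = 0.35). The 3 MT-numbered sgInert libraries had no *Muc5ac* count. *Muc6*, the third gel-forming gene tested in the cluster on chromosome 7, did not pass the test in any comparison, with log2 differences from sgInert of 0.32 ± 0.56 in sgCebpa/b/d and -0.19 ± 0.61 in sgLkb1. Of 14 goblet and gastric markers, which include *Muc5ac* and *Muc6* themselves, 5 had no count in sgInert, and the sum of the 14 was 17.5 to 44.6 CPM in sgInert, 19.04 to 47.3 in sgLkb1 and 12.9 to 43.6 in sgCebpa/b/d.

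*Emcn* and *Mcam*, sialomucin-like and adhesion proteins best known from endothelium, were called higher in both targeted groups. *Emcn* rose by 2.596 ± 0.61 in sgCebpa/b/d (adjusted p = 0.0067) and by 2.45 ± 0.63 in sgLkb1 (adjusted p = 0.023). It was at 22.7 to 38.3 CPM in unnumbered and at 2.71 to 6.03 in MT-numbered libraries of sgCebpa/b/d, against 0.774 to 5.94 in sgInert, and among MT-numbered libraries it was not called there (0.69, adjusted p = 0.53). *Mcam* rose by 3.97 ± 0.52 in sgLkb1 (adjusted p = 6.2e-05), from 1.70 to 5.40 CPM in sgInert to 45.3 to 77.2 CPM, and stayed called among MT-numbered libraries (adjusted p = 0.00012). The rise in sgCebpa/b/d was 2.51 ± 0.49 (adjusted p = 0.0015), with 31.1 to 42.5 CPM in unnumbered and 3.13 to 13.3 in MT-numbered libraries, and among the latter it was not called (1.24, adjusted p = 0.14). The endothelial marker sums follow the same split in sgCebpa/b/d, and their part was not tested. The list as a whole had 3 of 7 tested genes called higher in sgCebpa/b/d, 2 of 7 in sgLkb1 and none lower in either, where 2.65% and 1.87% of all genes tested were called higher. Its median log2 differences were 0.50 and 0.46, where all genes tested had medians of 0.02 and -0.01. Among MT-numbered libraries 1 of 7 was called higher in sgCebpa/b/d and 2 of 7 in sgLkb1, where 2.29% and 2.38% of all genes were. In sgCebpa/b/d the calls included *Muc5ac* over all libraries, and *Muc5ac* was the only call among MT-numbered ones. It was tested only because of its level in the targeted groups, so that the counts for sgCebpa/b/d are a description.

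The enzymes that build O-linked chains on mucins were read in 2 lists. Of 16 polypeptide GalNAc-transferases, which attach the first sugar, 11 were tested. *Galnt18* was called higher in sgCebpa/b/d than in sgInert (1.37 ± 0.27, adjusted p = 0.0015), with 24.1 to 30.6 CPM in unnumbered and 8.90 to 16.8 CPM in MT-numbered libraries against 4.53 to 9.32 in sgInert. Among MT-numbered libraries its difference was 0.65 (adjusted p = 0.23). Between sgLkb1 and sgInert edgeR called 0 of 11, with 1 at an unadjusted p under 0.05 and 0 by DESeq2, limma-voom and limma on log2 TPM. Among MT-numbered libraries *Galnt13* was called lower in sgLkb1 than in sgInert (-2.10, adjusted p = 0.00012), where 3.77% of all genes were called. It was called higher in sgCebpa/b/d than in sgLkb1 there (1.71, adjusted p = 0.00045, with 3.65%). *Galnt5* was called higher in sgCebpa/b/d than in sgInert there (3.82, adjusted p = 0.030, with 3.90%). Over all libraries the adjusted p-values were 0.31, 0.086 and 0.081. The median log2 difference of the 11 was -0.04 in sgCebpa/b/d and 0.08 in sgLkb1.

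Of 20 enzymes that extend or cap the chains, 16 were tested. In sgLkb1 the sialyltransferase genes *St6galnac2* and *St3gal6* were called lower than in sgInert, by -1.43 ± 0.20 (adjusted p = 0.00011) and -1.21 ± 0.22 (adjusted p = 0.0019). *St6galnac2* was at 9.24 to 18.7 CPM in sgLkb1, at 24.8 to 43.6 in sgInert and at 24.1 to 42.3 in sgCebpa/b/d. The branching enzyme gene *Gcnt4* was called higher in sgLkb1 (2.26 ± 0.53, adjusted p = 0.012), at 21.7 to 29.1 CPM against 0.360 to 14.05 in sgInert and 1.69 to 14.7 in sgCebpa/b/d. These 3 genes were also called between sgCebpa/b/d and sgLkb1, with *St6galnac2* (1.35 ± 0.20, adjusted p = 0.00013) and *St3gal6* (1.15 ± 0.22, adjusted p = 0.0024) higher in sgCebpa/b/d and *Gcnt4* lower (-2.01 ± 0.52, adjusted p = 0.021).

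*St6galnac3*, which adds sialic acid to short chains, was called lower in sgCebpa/b/d than in sgInert (-1.76 ± 0.46, adjusted p = 0.015). It was at 10.54 to 74.2 CPM against 42.9 to 260 in sgInert, and lowest in the unnumbered libraries (10.54 to 13.3 CPM). In sgLkb1 it was at 19.8 to 74.0 CPM, a difference from sgInert of -1.62 ± 0.52 that missed the threshold (adjusted p = 0.070). Among MT-numbered libraries it was called lower in both targeted groups, by -1.67 in sgCebpa/b/d (adjusted p = 9.2e-05) and -1.79 in sgLkb1 (adjusted p = 0.00012). The call in sgCebpa/b/d was lost among female libraries (-1.32, adjusted p = 0.12) and without the unnumbered libraries (-1.13, adjusted p = 0.071). *C1galt1c1*, the chaperone that core 1 synthesis requires, and *St3gal1* passed the adjusted threshold in sgCebpa/b/d at smaller folds (-0.80 ± 0.14, adjusted p = 0.00051, and -0.79 ± 0.15, adjusted p = 0.0010). Without regard to fold, 1412 of 13986 genes passed it there. Over the list the median log2 difference was -0.08 in sgCebpa/b/d and -0.17 in sgLkb1.

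**Figure D5:**
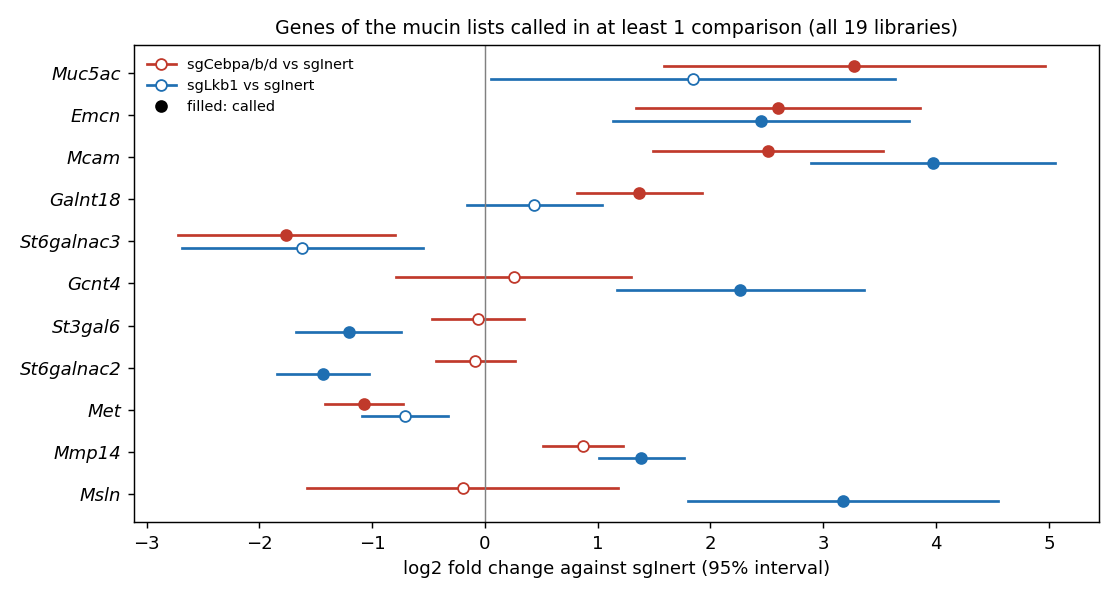
Log2 fold changes against sgInert, with unadjusted 95% intervals, of the 11 genes of the mucin-related lists called in at least 1 comparison over all 19 libraries. Red is sgCebpa/b/d, blue is sgLkb1, and filled symbols are called. *Gcnt4*, *St3gal6*, *St6galnac2* and *Msln* are filled in blue with red intervals that include 0.

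Proteins that bind or cleave membrane mucins were read from a list of 14, of which 13 were tested. *Met*, the receptor gene linked to *Muc20*, was called lower in sgCebpa/b/d than in sgInert (-1.07 ± 0.17, adjusted p = 0.00016). It was at 95.5 to 260 CPM against 297 to 465.9. In sgLkb1 it was at 226 to 244 CPM (-0.71 ± 0.18, adjusted p = 0.023). *Met* in sgCebpa/b/d fell under the fold threshold among MT-numbered (-0.75, adjusted p = 0.00077) and female libraries (-0.79, adjusted p = 0.00091). *Mmp14*, a membrane protease that can shed MUC1, was called higher in sgLkb1 (1.39 ± 0.18, adjusted p = 6.1e-05), at 29.6 to 41.1 CPM against 10.2 to 17.5. *Msln*, which encodes mesothelin, a ligand of MUC16, was called higher in sgLkb1 than in sgInert (3.17 ± 0.66, adjusted p = 0.0049) and, comparing the targeted groups, lower with sgCebpa/b/d (-3.37 ± 0.66, adjusted p = 0.0025). It was at 6.58 to 17.2 CPM in sgLkb1, at 0 to 3.45 in sgInert and at 0 to 2.54 in sgCebpa/b/d. Its levels outside sgLkb1 were low and reached 0. *Msln* may thus have passed the filter on low counts mainly through sgLkb1, and its calls are given as a description. *Msln* is itself one of the 6 mesothelial markers whose sum, given above, was higher in all sgLkb1 libraries than in all others. Of the rest, *Lrrn4* reached 3.50 CPM in sgLkb1, *Upk1b* reached 1.62 CPM, *Wt1* and *Upk3b* were at most at 0.146 and 0.291 CPM there, and *Calb2* had no count. The part of mesothelial cells in the *Msln* level was not tested. *Egfr*, *Erbb2* and the other list members were not called, and the median log2 difference of the 13 was 0.19 in sgCebpa/b/d and 0.11 in sgLkb1.

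Neither the genes for folding and secretion of mucins nor the regulators of mucous fate were called by edgeR. Of 15 folding, granule and secretion genes 10 were tested, and 3, 3 and 2 had an unadjusted p under 0.05 in sgCebpa/b/d against sgInert, sgLkb1 against sgInert and sgCebpa/b/d against sgLkb1. In the same order, 0, 0 and 0 of the 10 passed the adjusted threshold, where 1412, 809 and 833 of 13986 genes did. Among MT-numbered libraries 1, 0 and 1 of the 10 passed it at smaller folds, where 1169, 953 and 954 of 13674 genes did. Between sgLkb1 and sgInert over all libraries, DESeq2 and limma on log2 TPM each called 1 of the 10, and limma-voom called none. Of 11 regulators, 7 were tested, and 2, 2 and 0 had an unadjusted p under 0.05 in the same order, with none called by the other tests. None of the 7 passed the adjusted threshold, over all libraries or among MT-numbered ones. For both lists the share of all genes with an unadjusted p under 0.05 was not counted. *Nkx2-1*, the lung lineage factor, was at 203 to 275 CPM in sgInert, 191 to 263 in sgLkb1 and 224 to 339 in sgCebpa/b/d. *Spdef*, a driver of goblet cell fate, was at most at 1.34 CPM in any library, and *Agr2*, which folds gel-forming mucins, at most at 2.86 CPM.

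Across the 19 libraries, which share groups and title series, the log2 CPM of *Muc1* and *Muc4* varied together (Pearson r = 0.80), and that of *Muc5b* ran against *Muc4* (r = -0.43). The genes most like *Muc1* were *Ptbp3* (r = 0.88), *Arg2* (r = 0.88) and *Tmem123* (r = 0.87), and those most like *Muc4* were *Rfk* (r = 0.89), *Tmem123* (r = 0.86) and *Uba6* (r = 0.86). For *Muc5b* they were *Fhl1*, *Clip4* and *Per1* (each r = 0.88), and for *Muc20* *Rpl10* (r = 0.84), *Akap7* and *Casc4* (each r = 0.83). These correlations describe the 19 libraries and carry no test.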

How the data were processed

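RNA of sorted neoplastic cells was sequenced from 19 libraries. According to the methods and the processing notes, the authors aligned reads to mm10 with STAR (2.6.1d) and estimated gene levels with RSEM (1.2.30). The deposited expected counts are these estimates without normalization, and RSEM's deposited TPM values account for transcript length and sum to the same total everywhere. RSEM divides ambiguous reads between genes by a model. The authors' tables of normalized values and of DESeq2 (1.26.0) fold changes and p-values were not used.

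Expected counts were rounded. Genes were filtered with filterByExpr (minimum count 10, minimum total 15), scaled by TMM and fitted with edgeR 4.0.16 (glmQLFit, glmQLFTest) in R 4.3.3, in one model of all 19 libraries without covariates, with Benjamini-Hochberg adjustment over 13986 genes. Log2 CPM used a prior count of 2. Figures and tables used Python 3.11.15 with matplotlib 3.10.9. The procedure was tested on simulated counts. Alternatives used DESeq2 1.42.0, limma 3.58.1 (limma on log2 TPM with a pseudocount of 1), other scalings and filters (20 counts in 5 libraries), lengths, covariates and subsets of libraries. Gene models are from GENCODE for GRCm38.

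The members and gene lists were chosen with earlier results of these data known. Besides the 5 members, genes named are the targeted genes, list genes past both thresholds, and the 3 genes most correlated with each tested member. *C1galt1c1*, *St3gal1*, *Muc6*, *Egfr*, *Erbb2*, *Nkx2-1*, *Spdef*, *Agr2* and the markers *Krt5*, *Krt14*, *Lrrn4*, *Calb2*, *Wt1*, *Upk1b* and *Upk3b* were named after their values were seen. Some libraries share an animal number (2 sgInert, 3 sgCebpa/b/d and 2 sgLkb1), so that n counts libraries, and p-values measure the spread between libraries. Depth of 2760731 to 9944134 counts per library limits low genes most, and reads of amplified libraries are not independent molecules. One further allele, shared by all groups, is not reported here.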

Additional observations from a re-analysis of the deposited data

Results flagged for a closer look

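In 60 sets of libraries (one gene in one group each), the distance of the most extreme library to its neighbour was compared with the range of the group, and chance alone would pass the limit in about 1 in 20 sets. *Muc16* passed it in sgCebpa/b/d (ratio 0.855, replicate 7) and in sgLkb1 (ratio 0.945, replicate 5). *Met* in sgLkb1 passed it for its highest library (ratio 0.752), although its range there was 226 to 244 CPM. *Muc5ac* in sgInert passed it for its highest library (ratio 0.588), at 1.13 CPM.

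The effects of the targeted groups against the shared sgInert libraries differed, by the edgeR test of sgCebpa/b/d against sgLkb1, for *Muc4* (log2 difference 1.00, adjusted p = 0.033, with 4 of 7 sgCebpa/b/d libraries above all 5 sgLkb1 libraries). The same held for *St6galnac2* (1.35) and *St3gal6* (1.15), which were higher in sgCebpa/b/d, although for *St3gal6* the nearest libraries of the groups were both at 62.5 CPM. *Gcnt4* (-2.01) and *Msln* (-3.37) were lower in 7 of 7 sgCebpa/b/d libraries than in all sgLkb1 libraries. *Stk11* (1.09) and *Cebpa* (1.15), the targeted genes, also differed.

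In sgCebpa/b/d the mean log2 CPM of *Muc4* was 1.502 higher in the 4 MT-numbered than in the 3 unnumbered libraries. Every library of the first set was above, and every library of the second below, all 7 sgInert libraries. This difference was not tested, and sex and title series cannot be told apart in it.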

How the results depend on the processing

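Of 420 member results under other settings or with a library left out, 369 kept their direction and their side of the thresholds, 20 lost and 18 gained a call, and 13 changed sign, all of the last with small differences. Between sgCebpa/b/d and sgInert the number of called mucin genes was 0, and it was 0 with any library left out. It became 1 with sex (742 of 13986 genes called) or title series (484 of 13986) as a covariate. The number was also 1 among MT-numbered libraries (533 of 13674) and with limma-voom (538 of 13986). Between sgLkb1 and sgInert it was 1, and became 2 with sex as a covariate (750 of 13986 genes called) and among MT-numbered libraries (515 of 13674). It became 0 with gene length offsets (384 of 13986 genes called), with only the 2 groups compared (418 of 13038) and with libraries of one animal number summed (321 of 14204). It was also 0 with limma-voom (458 of 13986) and with limma on log2 TPM (472 of 13986). In a setting chosen after the data were seen, without the unnumbered libraries, it was 0 as well (311 of 14080). With a library left out it ranged from 0 to 1. Among female libraries it was also 1, but that gene was *Muc4* (-1.01, adjusted p = 0.00016, with 563 of 14128 genes called), and *Muc5b* lost its call (2.59, adjusted p = 0.16). For sgCebpa/b/d against sgLkb1 it was 0. It became 1 without a fold threshold (833 of 13986 genes passed) and with gene length offsets (361 of 13986 called). It was also 1 with sex as a covariate (487 of 13986) and with the replicate block (364 of 13986). The same held among MT-numbered libraries (499 of 13674), among female libraries (636 of 14128) and without the unnumbered libraries (281 of 14080). With a library left out it ranged from 0 to 1 (1 without sgCebpa/b/d replicate 5, 6 or 7 or sgLkb1 replicate 4). The cause of these changes was not tested.

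Signs changed for *Muc1* between sgCebpa/b/d and sgInert (-0.024 with sex as a covariate, -0.056 with animals summed, and -0.0073 to 0.12 with a library left out) and for *Muc4* there (-0.13 with sex, -0.083 with animals summed, -0.019 with limma-voom). *Muc20* between sgCebpa/b/d and sgLkb1 changed to 0.065 with sex, 0.21 among MT-numbered libraries, 0.31 among female libraries and 0.21 without the unnumbered libraries, and ranged from -0.54 to 0.10 with a library left out. Limma on log2 TPM shifted the median of all genes by 0.18 between sgLkb1 and sgInert and by -0.15 between sgCebpa/b/d and sgLkb1, with 382 genes called higher and 90 lower in the former against 261 and 160 with edgeR.

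With the replicate number as a block, the counts of called mucin genes were 0, 1 and 1 in the 3 comparisons, where 610, 525 and 364 of 13986 genes were called, *Muc4* was called lower in sgLkb1 than in sgInert (-1.06, adjusted p = 0.028) and higher in sgCebpa/b/d than in sgLkb1 (1.09, adjusted p = 0.025), and *Muc5b* was no longer called (2.57, adjusted p = 0.15). The replicate numbers did not pair the libraries, since the correlation of deviations from the group means over 17 same-numbered pairs was -0.147 to 0.232 with a mean of 0.0119. Depth limits *Muc5b* and *Muc16* most, where single counts decide a level.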
